A study of Homo sapiens with 12 samples.

Results

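The libraries described here cross resveratrol (RSV) with vemurafenib (Vem) in 501Mel cells, an established human melanoma line that carries mutant BRAF. They were taken by their labels and are 8 of the 12 libraries of the study, 2 in each of 4 groups. Treatment lasted 48 h and consisted of DMSO as vehicle, 1 µM Vem, 5 µM RSV, or 5 µM RSV together with 1 µM Vem (RSV+Vem). All groups are 1 cell line at 1 dose of each compound and 1 time. The other 4 libraries were given the compound TCDD, without or with 5 µM RSV. They are not described here but were part of the fit and share its estimate of the spread. The labels do not say whether the replicates came from separate cultures. The p-values therefore measure only the spread between replicate libraries of the 12, which may be technical.

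Vem inhibits mutant BRAF, the kinase that drives the MAPK cascade in these cells. Signalling through this cascade sustains the transcription of its own feedback inhibitors and of the genes of cell division, while melanoma cells under BRAF inhibition often raise lysosomal, mitochondrial and pigmentation genes. RSV is a plant stilbene that acts, among other activities, as an antagonist of the aryl hydrocarbon receptor (AhR), a ligand-activated transcription factor, and the study combined it with Vem as such an antagonist.

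The question was where the effects of the compounds did not add up. For each gene the effect of Vem in the presence of RSV (RSV+Vem against RSV) was set against its effect without RSV (Vem against vehicle), both as log2 fold changes, and their difference is called the interaction. An interaction of 0 means that the effects add on the log2 scale. A positive value means that the effect of Vem was more upward, or less downward, with RSV than without, and a negative value the opposite. Levels are CPM, the counts of a gene scaled to a common library total with TMM factors, and are compared here within a gene only.

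Library depth was between 8378655 and 25076925 counts on genes, and the lowest total was that of RSV+Vem replicate 2. The RNA integrity numbers in the labels were 8.7 and 8.6 for RSV+Vem and between 9.2 and 9.7 for the other 6 libraries. Control sequences held 0.0389% and 0.0903% of the counts in the RSV+Vem libraries and between 0.031% and 0.0447% in the other 6. The part of RNA integrity and control share in the interactions was not tested. With all counts thinned to the lowest depth 3132 genes were called for the interaction, 2910 of them shared with the calls given next. Values without RSV+Vem replicate 2 are given where they bear on a result. Markers of melanocytes summed to between 11100 and 51600 CPM over the 8 libraries. Lists of leukocyte, endothelial, fibroblast and keratinocyte markers summed to at most 2.59, 1.92, 17.1 and 26 CPM. In bulk RNA, fewer cells of a kind and less RNA per cell cannot be told apart.

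Among 16080 tested genes, 3656 (22.7%) were called for the interaction at a Benjamini-Hochberg adjusted p below 0.05 in the quasi-likelihood test of edgeR. Of these, 1905 (11.8% of the tested genes) were higher and 1751 (10.9%) were lower than additive. The median over all tested genes was 0.02 on the TMM scale, which centres the typical gene near 0. The number of calls and the balance of their directions depended on the scale: with counts scaled to the ERCC spike-ins the same test called 8 genes, all higher, and the median of all genes moved to 0.154. The spike-in share differed between the RSV+Vem replicates as given above. In 2 genes far from 0 the sizes moved less than the calls. On the spike-in scale the interaction of DUSP6 was 2.82 and the interaction of CTSA was -0.99, beside 2.66 and -1.14 on the TMM scale. Values near 0 could change sign on that scale, as given for OCA2 and TYR below. Without RSV+Vem replicate 2 the test called 2476 genes, and 811 passed a test against an absolute interaction of 0.5.

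Promoters of 6 genes are shown before their values, because the cell cycle and lysosome genes described next belong to groups with known promoter elements. The 6 were picked from called list members in order of adjusted p, and genes without a match were passed over. Every promoter shown therefore holds a match by choice, and the shares over the lists are given below the sequences. Each run is the 250 bases before the annotated start, from RefSeq on GRCh38.p14, on the strand of the gene. Capitals mark matches, on either strand, to the E2F element (TTTCCCGC, TTTGGCGC, TTTCGCGC or TTTGCCGC) in the replication genes RFC3 and TYMS, to the cell cycle homology region (CHR, TTTGAA) in the mitotic genes CCNB2 and TOP2A, and to the CLEAR-type element (TCACGTGA) in the lysosomal genes CTSA and MCOLN1.
RFC3 promoter, chr13:33817899-33818148, plus strand: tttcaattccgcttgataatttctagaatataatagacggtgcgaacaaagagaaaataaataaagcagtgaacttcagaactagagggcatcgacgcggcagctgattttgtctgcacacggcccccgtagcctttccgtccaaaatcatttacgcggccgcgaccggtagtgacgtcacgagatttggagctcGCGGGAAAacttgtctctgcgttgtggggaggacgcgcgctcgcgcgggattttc
TYMS promoter, chr18:657403-657652, plus strand: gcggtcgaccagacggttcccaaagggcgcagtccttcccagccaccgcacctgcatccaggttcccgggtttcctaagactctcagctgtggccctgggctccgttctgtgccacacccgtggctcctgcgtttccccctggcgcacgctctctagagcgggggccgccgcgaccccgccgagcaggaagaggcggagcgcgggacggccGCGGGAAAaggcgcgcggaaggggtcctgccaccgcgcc
CCNB2 promoter, chr15:59104896-59105145, plus strand: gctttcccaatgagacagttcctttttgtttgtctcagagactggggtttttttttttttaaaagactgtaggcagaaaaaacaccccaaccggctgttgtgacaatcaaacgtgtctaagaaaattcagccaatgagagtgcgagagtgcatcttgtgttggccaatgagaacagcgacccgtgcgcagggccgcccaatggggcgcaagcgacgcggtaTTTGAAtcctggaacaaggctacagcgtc
TOP2A promoter, chr17:40417897-40418146, minus strand: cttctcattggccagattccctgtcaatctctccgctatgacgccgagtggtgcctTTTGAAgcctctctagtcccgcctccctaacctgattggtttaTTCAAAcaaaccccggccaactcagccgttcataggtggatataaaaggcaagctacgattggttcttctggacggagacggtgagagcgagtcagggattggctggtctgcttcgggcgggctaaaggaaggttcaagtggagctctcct
CTSA promoter, chr20:45891085-45891334, plus strand: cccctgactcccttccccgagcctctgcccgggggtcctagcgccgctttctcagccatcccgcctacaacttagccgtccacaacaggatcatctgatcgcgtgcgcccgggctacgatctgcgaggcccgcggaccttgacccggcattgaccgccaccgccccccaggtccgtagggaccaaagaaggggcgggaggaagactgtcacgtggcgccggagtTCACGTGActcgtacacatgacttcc
MCOLN1 promoter, chr19:7522374-7522623, plus strand: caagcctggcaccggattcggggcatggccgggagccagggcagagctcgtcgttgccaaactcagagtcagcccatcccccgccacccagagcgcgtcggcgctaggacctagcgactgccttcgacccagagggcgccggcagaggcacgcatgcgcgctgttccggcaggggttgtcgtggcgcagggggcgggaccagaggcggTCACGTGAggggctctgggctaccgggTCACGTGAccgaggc
Across the lists, 13 of 36 matched promoters of DNA replication genes (36.1%) held an E2F match, beside 483 of 10976 matched promoters of tested genes (4.4%). A CHR match was present in 18 of 32 promoters of mitosis genes (56.2%), beside 8.62% of the tested genes. A CLEAR-type match was present in 4 of 23 promoters of lysosome genes (17.4%), beside 1.63%. Among all genes called higher for the interaction 6.85% held an E2F match and 12.8% a CHR match, and among all genes called lower 2.26% held a CLEAR-type match, which is nearer to the tested genes than to the lists. These matches describe the letters in the window and are not evidence of binding.

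In most called genes the Vem effect was smaller with RSV than without. Of the 3656 genes, 2246 (61.4%) had the same direction of Vem effect in both settings and a smaller size with RSV, 1326 (36.3%) had opposite directions, and 84 (2.3%) had the same direction and a larger size. Vem alone called 8422 genes (52.4%), 4093 higher and 4329 lower, and Vem in the presence of RSV called 3972 (24.7%), 1823 higher and 2149 lower. RSV alone called 6538 genes (40.7%), and RSV+Vem relative to vehicle called 7851 (48.8%).

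Of the 4093 genes higher with Vem alone, 1364 (33.3%) were called higher again in the presence of RSV and 78 were called lower. Their median log2 fold change was 0.73 without RSV and 0.27 with RSV. Of the 4329 genes lower with Vem alone, 1544 (35.7%) were called lower again and 28 higher, with medians of -0.81 and -0.29. These genes were chosen by the effect of Vem alone, which also enters the interaction, so their medians are a description. Across all tested genes the slope of the Vem effect with RSV on that without was 0.41. The slope between single replicate pairs was 0.83 for the Vem effect without RSV and 0.68 for that with RSV. With the replicate numbers crossed between groups these slopes were 0.82 and 0.59. The 2 effects share no library, and genes are not independent replicates.

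**Figure D1:**
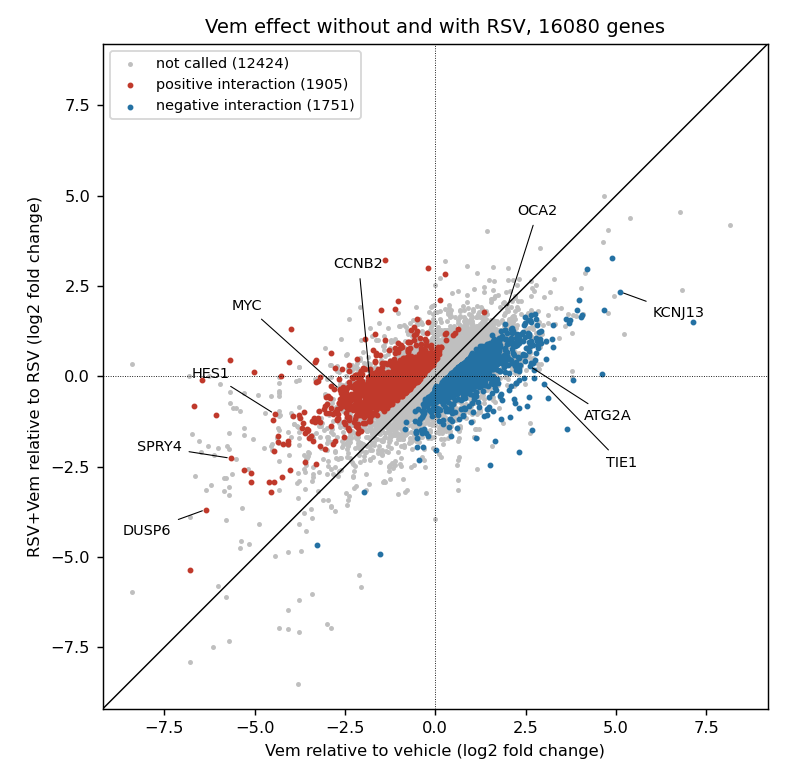
Log2 fold change of Vem against vehicle (horizontal) and of RSV+Vem against RSV (vertical) for 16080 tested genes, 1 point per gene, with the line of equal effect. Genes called for a positive interaction (1905, red) lie above the line mostly at the left, and genes called for a negative one (1751, blue) lie below it mostly at the right, while OCA2 lies close to the line.

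Feedback inhibitors of the MAPK cascade were among the largest positive interactions. DUSP6, a phosphatase that inactivates ERK (12:89741012 to 89746278 on the minus strand of GRCh37), had 111 and 98.5 CPM with vehicle, 1.81 and 0.692 with Vem, 191 and 155 with RSV, and 14.5 and 11.9 with RSV+Vem. SPRY4, a feedback inhibitor of receptor signalling (5:141689992 to 141706020, minus strand), had 55.6 and 62.7 CPM, then 1.67 and 0.615, 70.1 and 62.3, and 13.8 and 13.7 in the same order. For both genes all groups given Vem lay below all groups without it, and both RSV+Vem libraries lay above both Vem libraries. The Vem effect on DUSP6 was -6.35 without RSV and -3.69 with it, an interaction of 2.66 (SE 0.32, edgeR adjusted p = 2.67e-05). For SPRY4 the effects were -5.66 and -2.27, and the interaction was 3.39 (SE 0.29, edgeR adjusted p = 7.18e-07).

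MYC, the growth-promoting transcription factor, showed another pattern. It had 103 and 96.7 CPM with vehicle, 15.6 and 16.4 with Vem, 26.6 and 19.2 with RSV, and 18.4 and 16.9 with RSV+Vem. Either compound alone lowered it far below vehicle, and the combination lay between the Vem and the RSV libraries. Adding the single effects would give a log2 fold change of -4.76, whereas RSV+Vem stood at -2.49 relative to vehicle, an interaction of 2.27 (SE 0.2, edgeR adjusted p = 7.18e-07).

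Of 22 tested genes in the MAPK output list, 12 were called higher and 1 lower (54.5% and 4.55%, beside 11.8% and 10.9% of all tested genes). The median interaction was 0.92, beside 0.02 over all tested genes. The median Vem effect over the list was -3.28 without RSV and -2.06 with RSV, so most members were still lowered by Vem. In all, 20 were called lower without RSV and 18 with it, beside 26.9% and 13.4% of all tested genes. The transcription factors ETV1 and ETV5, activated downstream of ERK, had interactions of 1.79 and 1.43, and the feedback inhibitor SPRY2 had 2.28. The member called lower was VGF, a secreted neuropeptide precursor, with 21.8 and 21 CPM with vehicle, 2.36 and 2.07 with Vem, 76.8 and 45.4 with RSV, and 2.5 and 2.25 with RSV+Vem. Its level was alike in both Vem groups and higher with RSV alone, and its interaction was -1.40 (SE 0.44, edgeR adjusted p = 0.0374). VGF kept its call only without RSV replicate 1 or 2, and without any 1 of the vehicle, Vem and RSV+Vem libraries it was not called, with values from -1.50 to -1.30. EGR1, an immediate early factor, had an interaction of -0.13 that was not called (SE 0.98, edgeR adjusted p = 0.946), and its vehicle replicates were 157 and 46.3 CPM. Over 21 tested immediate early genes 6 (28.6%, beside 11.8% of all tested genes) were called higher and 0 lower. The list median of 0.66 was 0.13 without vehicle replicate 1. The 6 calls were 2 without Vem replicate 2, RSV replicate 2 or RSV+Vem replicate 1, 3 without RSV+Vem replicate 2 and 4 without Vem replicate 1.

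HES1, a repressor induced by Notch signalling, had the largest positive interaction among the called genes with at least 50 counts in their highest group. Its levels were 42.1 and 26.6 CPM with vehicle, 1.95 and 1.15 with Vem, 22.1 and 17.4 with RSV, and 9.84 and 9.22 with RSV+Vem. The groups did not overlap, and the interaction was 3.40 (SE 0.35, edgeR adjusted p = 6.34e-06). POU3F2, a transcription factor of the less differentiated melanoma state, had 25.4 and 25.3 CPM with vehicle and 4.03 and 4.07 with Vem. With RSV it had 22.5 and 26.6 CPM, and with RSV+Vem 19.7 and 19.1. RSV alone left it near vehicle, whereas the fall under Vem was smaller in its presence, -2.64 against -0.34, an interaction of 2.31 (SE 0.2, edgeR adjusted p = 6.87e-07).

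**Figure D2:**
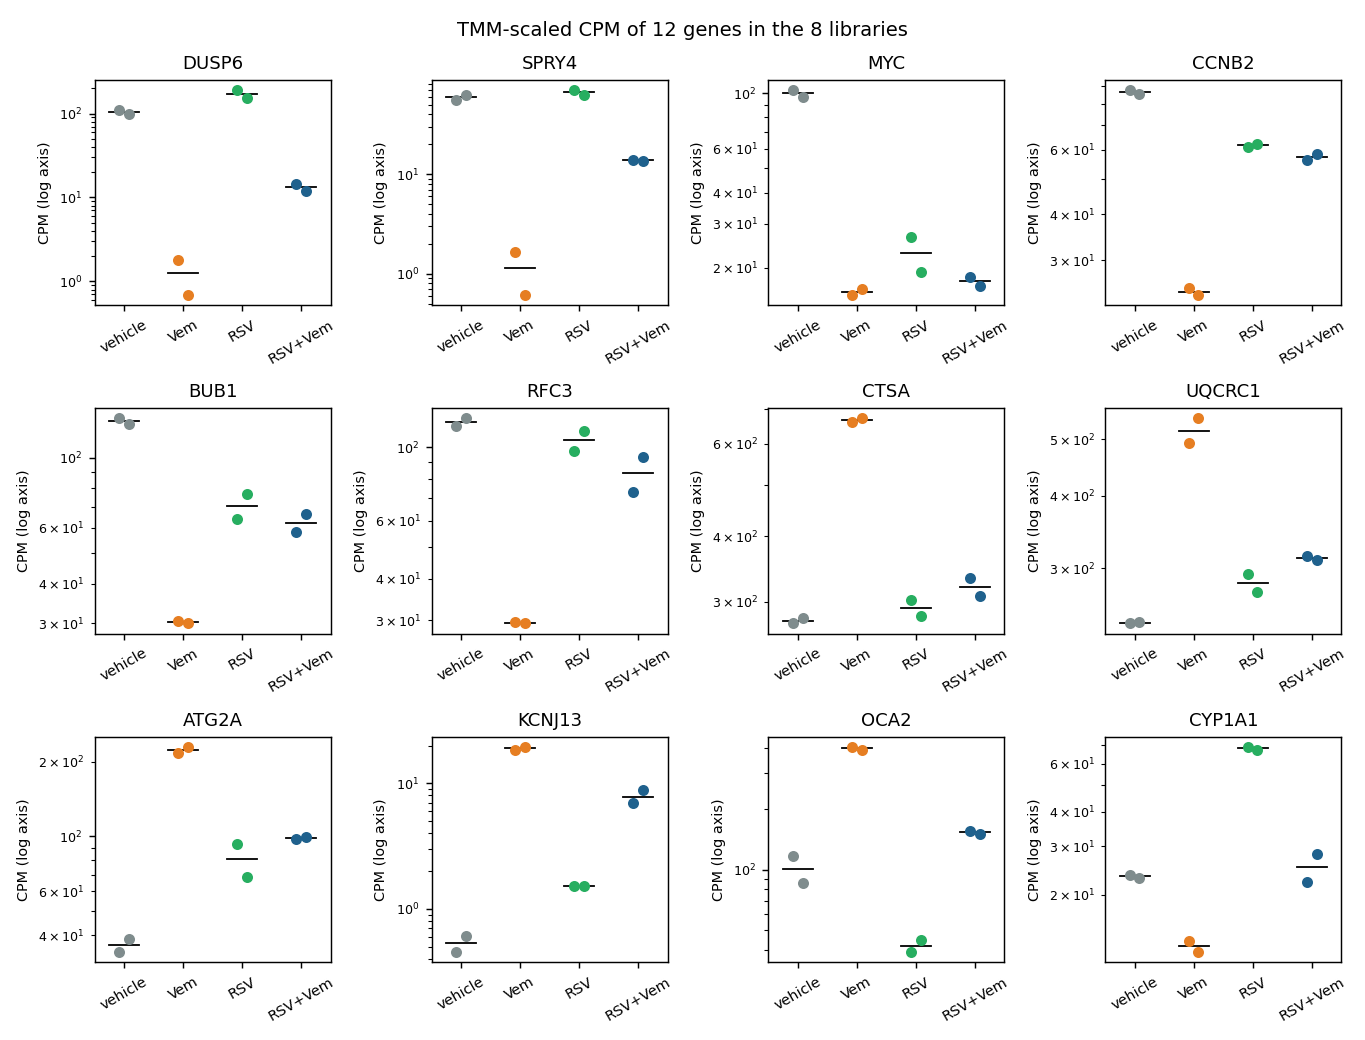
TMM-scaled CPM of 12 genes in each of the 8 libraries on log axes, 1 point per library and a bar at the mean of the group. In the first 6 genes (DUSP6, SPRY4, MYC, CCNB2, BUB1 and RFC3) the Vem libraries are lowest, and in CTSA, UQCRC1, ATG2A and KCNJ13 they are highest. On the log axis the RSV+Vem mean lies nearer to RSV than to Vem in SPRY4, CCNB2, BUB1, RFC3, CTSA, UQCRC1 and ATG2A.

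Mitotic genes departed from additivity together. All 37 genes of the mitosis list were tested and 37 were called higher (100%, beside 11.8% of all tested genes), with a median interaction of 1.62 and values from 0.63 to 2.58. CCNB2, a cyclin that activates CDK1 at mitotic entry, had 87.5 and 85.1 CPM with vehicle, 25.1 and 24.1 with Vem, 61.3 and 62.3 with RSV, and 56.2 and 58.3 with RSV+Vem. BUB1, a kinase of the spindle checkpoint, had 133 and 128 CPM, then 30.5 and 30, 64.1 and 76.7, and 58.3 and 66.3. In both genes the Vem libraries were far below all others, and the RSV+Vem libraries lay just below or among those with RSV.

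For CCNB2 the effect of Vem was -1.81 without RSV and -0.11 with it, and the interaction was 1.70 (SE 0.14, edgeR adjusted p = 4.38e-07). For BUB1 the interaction was 1.93 (SE 0.15, edgeR adjusted p = 4.38e-07). PLK1, a kinase of mitotic progression, was lowered by either compound: 125 and 154 CPM with vehicle, 48.1 and 47 with Vem, 42.1 and 42.6 with RSV, and 43.5 and 48.5 with RSV+Vem. Across the list Vem called 37 genes lower without RSV, and in its presence 16 lower and 1 higher, with medians of -1.87 and -0.27. Over all tested genes Vem called 26.9% lower without RSV, and 13.4% lower and 11.3% higher with RSV. RSV alone had a median of -0.49 and called 26 of the 37 genes lower, beside 20.2% of all tested genes. With Vem present the median RSV effect was 1.07, and 34 genes were called higher in RSV+Vem than in Vem, beside 19.1% of all tested genes.

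DNA replication genes moved the same way, from a different base. Of 40 genes, 38 (95%, beside 11.8% of all tested genes) were called higher for the interaction and 0 lower, with a median of 0.90. RFC3, a subunit of the clamp loader, had 116 and 122 CPM with vehicle, 29.6 and 29.4 with Vem, 97.4 and 112 with RSV, and 73.3 and 93.2 with RSV+Vem. Vem libraries lay below all others and the RSV+Vem libraries below those of RSV alone. The Vem effect was -2.01 without RSV and -0.34 with it, an interaction of 1.67 (SE 0.19, edgeR adjusted p = 7.36e-06). TYMS, which makes thymidylate for DNA synthesis, had an interaction of 1.00, and CDC45 and ORC6, which act at replication origins, had 1.19 and 1.20.

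Unlike the mitotic genes, the replication genes were not lowered on balance by RSV alone, where their median was 0.09. Of the 40, RSV alone called 10 higher and 9 lower, beside 20.5% and 20.2% of all tested genes. Their median Vem effect was -1.45 without RSV and -0.57 with RSV. With RSV present, 37 of the 40 genes were still called lower by Vem, beside 13.4% of all tested genes. The mitosis and replication lists therefore differed in what was left of the Vem effect, 16 of 37 against 37 of 40 genes called lower. That difference between lists was not tested.

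Genes of homologous recombination and crosslink repair, which resect and pair broken DNA ends and unhook crosslinks, followed the replication genes. Of 18 tested members 17 (94.4%, beside 11.8% of all tested genes) were called higher, with a median interaction of 1.20. MND1, a cofactor of the strand-exchange recombinases, had 17.6 and 17.5 CPM with vehicle, 3.06 and 3.07 with Vem, 18.9 and 20.9 with RSV, and 14.2 and 15.2 with RSV+Vem. The Vem libraries lay apart from the other 6, and the interaction was 2.07 (SE 0.23, edgeR adjusted p = 6.2e-06). EXO1, an end-resecting nuclease, and XRCC2, a recombination protein, had interactions of 1.60 and 1.73. The exception was FANCG, a subunit of the Fanconi core complex, whose interaction of 0.39 was not called.

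Upstream of replication, 8 of 20 tested G1 regulators were called higher and 1 lower, with a median of 0.58. These are 40% and 5%, beside 11.8% and 10.9% of all tested genes. The repressors E2F7 and E2F8 of the E2F family had interactions of 1.05 and 0.91, and CCNE2, a cyclin of S phase entry, had 1.15. CCND1, a D cyclin that responds to MAPK signalling, had 644 and 667 CPM with vehicle, 149 and 150 with Vem, 393 and 403 with RSV, and 141 and 127 with RSV+Vem. Its levels in both Vem groups were close to each other, and its interaction of 0.56 (SE 0.12, edgeR adjusted p = 0.00272) went with the lower level under RSV alone. CDKN2B, an inhibitor of CDK4 and CDK6, was the member called lower. It had 4.5 and 4.57 CPM with vehicle, 5.42 and 7.38 with Vem, 40.2 and 32.4 with RSV, and 19.4 and 16.9 with RSV+Vem. The rise under RSV was smaller when Vem was present, an interaction of -1.47 (SE 0.24, edgeR adjusted p = 0.000334).

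Leaving out any 1 of the 8 libraries kept the median interaction of the mitosis list between 1.51 and 1.72, of the replication list between 0.80 and 1.01 and of the repair list between 1.08 and 1.33. For the MAPK output list it was between 0.66 and 1.23. All 37 mitosis genes were called without each of the 8 libraries in turn, and between 32 and 40 of the replication genes, 16 and 18 of the repair genes and 10 and 14 of the MAPK output genes were called higher.

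**Figure D3:**
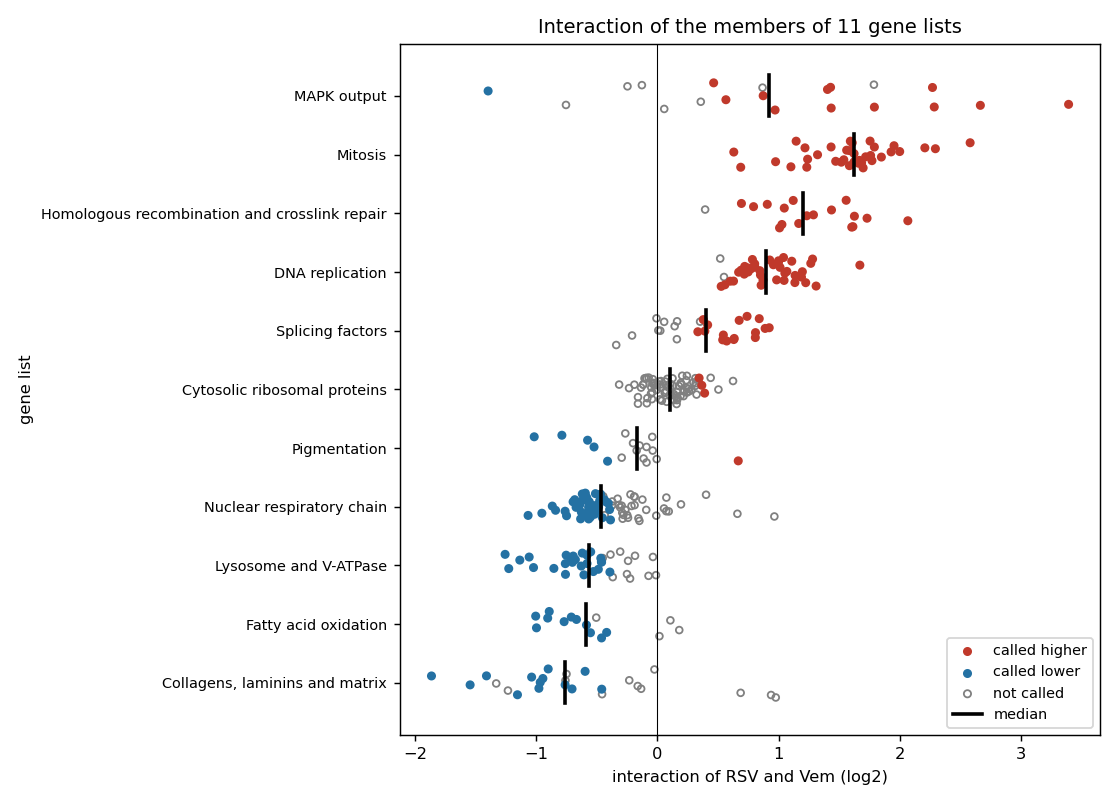
Interaction on the log2 scale of the members of 11 gene lists, 1 point per gene, filled where called and open where not, with a bar at the median. The plot leaves out 4 members with 3 or fewer counts in both libraries of a group. All mitosis points lie to the right of 0, all lysosome points and most respiratory chain points to the left, and cytosolic ribosomal proteins lie around 0.

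Splicing factors were a further group that was less lowered by Vem when RSV was present. Of 26 tested, 16 (61.5%, beside 11.8% of all tested genes) were called higher and 0 lower, with a median of 0.40. The median Vem effect was -0.62 without RSV and -0.16 with RSV. HNRNPDL, an RNA-binding protein, had 279 and 306 CPM with vehicle and between 153 and 164 in every library of the other 3 groups. Either compound alone thus gave the level that the combination gave, with an interaction of 0.92 (SE 0.12, edgeR adjusted p = 2.8e-05). HNRNPC, which binds nascent transcripts, had an interaction of 0.81 and SRSF7, a splicing activator, 0.81. The 16 calls were 9 without Vem replicate 1, RSV replicate 1 or RSV+Vem replicate 2.

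In ribosome biogenesis 9 of 31 genes were called higher and 2 lower, with a median of 0.32. These are 29% and 6.45%, beside 11.8% and 10.9% of all tested genes. The 9 calls were 3 without Vem replicate 1, and 5 without vehicle replicate 2 or RSV+Vem replicate 2. NPM1, a chaperone of the nucleolus, had 1630 and 1630 CPM with vehicle, 746 and 890 with Vem, 873 and 983 with RSV, and 736 and 776 with RSV+Vem. Both compounds lowered it, and the RSV+Vem libraries lay below both RSV libraries by less than Vem alone lay below vehicle, an interaction of 0.70 (SE 0.13, edgeR adjusted p = 0.000965). Cytosolic ribosomal proteins were near additive: 3 of 79 (3.8%, beside 11.8% of all tested genes) were called higher and 0 lower. Their median was 0.10, and their median in RSV+Vem relative to vehicle was -0.52. The 3 called members, RPL14, RPSA and RPS24, had interactions of 0.39, 0.37 and 0.34, and all 3 lost their calls without vehicle replicate 1, without Vem replicate 1 and without RSV+Vem replicate 1, where the values were between 0.26 and 0.40.

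The negative side held mostly genes that Vem raised. Of the 1751 genes called lower for the interaction, 1574 were called higher by Vem alone, an effect that also enters the interaction. Of 36 genes of the lysosome and its proton pump, the V-ATPase, 25 (69.4%, beside 10.9% of all tested genes) were called lower for the interaction and 0 higher, with a median of -0.57. CTSA, a lysosomal carboxypeptidase, had 273 and 279 CPM with vehicle, 662 and 671 with Vem, 302 and 282 with RSV, and 333 and 308 with RSV+Vem. The Vem libraries stood apart, and the libraries of the other 3 groups lay between 273 and 333 CPM. The Vem effect was 1.27 without RSV and 0.14 with RSV, an interaction of -1.14 (SE 0.12, edgeR adjusted p = 3.57e-06).

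The cathepsins CTSL and CTSD had interactions of -1.26 and -1.02, the calcium channel MCOLN1 -0.76, and TFE3, a regulator of lysosomal genes, -0.49, a call that was lost without Vem replicate 1 (-0.44), RSV replicate 1 (-0.41) or RSV+Vem replicate 2 (-0.41). The related regulator TFEB had -0.23, which was not called (edgeR adjusted p = 0.371). Over the list Vem called 27 genes higher and 2 lower without RSV, beside 25.5% and 26.9% of all tested genes. With RSV it called 7 higher and 8 lower, beside 11.3% and 13.4%. With each of the 8 libraries left out, between 21 and 24 lysosome genes were called lower for the interaction and 0 higher.

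Autophagy genes showed the largest single departure in ATG2A, which transfers lipid to the growing autophagosome (11:64662018 to 64684681, minus strand). It had 34.3 and 38.6 CPM with vehicle, 216 and 229 with Vem, 93.5 and 68.4 with RSV, and 97.7 and 99.5 with RSV+Vem. The Vem libraries were the highest and the combination stood near RSV. The sum of the single effects is 3.76 on the log2 scale and the combination stood at 1.43, an interaction of -2.33 (SE 0.19, edgeR adjusted p = 6.97e-07). SQSTM1, a cargo receptor, had 214 and 282 CPM with vehicle, 486 and 483 with Vem, 722 and 619 with RSV, and 694 and 656 with RSV+Vem. Its interaction was -0.96. The counts of the autophagy list stand beside 10.9% of all tested genes called lower and 11.8% called higher. Of 19 members 7 were called lower and 1 higher, with a median of -0.42, and 4 were lower without Vem replicate 2 or RSV+Vem replicate 1.

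Mitochondrial energy genes rose with Vem and rose less in the presence of RSV. Of 76 nuclear genes of the respiratory chain, 43 (56.6%, beside 10.9% of all tested genes) were called lower for the interaction and 0 higher. Their median was -0.46. UQCRC1, a core subunit of complex III, had 241 and 242 CPM with vehicle, 492 and 543 with Vem, 293 and 273 with RSV, and 315 and 310 with RSV+Vem. The groups did not overlap and the Vem libraries were highest. The Vem effect was 1.10 without RSV and 0.15 with RSV, an interaction of -0.95 (SE 0.12, edgeR adjusted p = 1.61e-05). ATP5B, the catalytic subunit of ATP synthase, and COX6B1, of complex IV, had interactions of -0.75 and -0.87. Vem called 68 of the 76 genes higher and 1 lower without RSV, beside 25.5% and 26.9% of all tested genes. With RSV it called 33 higher and 0 lower, beside 11.3% and 13.4%. The 43 calls were 22 without Vem replicate 2 and 25 without RSV+Vem replicate 2, and between 32 and 40 without each of the other 6 libraries.

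The 13 protein-coding genes of the mitochondrial genome had a median of -0.62, with 5 called lower (38.5%, beside 10.9% of all tested genes) and 0 higher. Vem called 12 of them higher without RSV and 0 with RSV, beside 25.5% and 11.3% of all tested genes. The median was -0.95 without vehicle replicate 2, with 9 called lower, and -0.42 without vehicle replicate 1, with 4. In fatty acid oxidation 11 of 15 genes (73.3%, beside 10.9% of all tested genes) were called lower and 0 higher, with a median of -0.59. HADHB, of the trifunctional enzyme, had 210 and 188 CPM with vehicle, 450 and 511 with Vem, 255 and 280 with RSV, and 331 and 366 with RSV+Vem. The combination lay between RSV and Vem, an interaction of -0.89 (SE 0.13, edgeR adjusted p = 0.000106). CPT1A, which commits fatty acids to import, had -0.77. The exceptions were HADH, ETFA and ETFB, with values of 0.02, 0.11 and 0.18, and ECI1 with -0.50, none of which was called.

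Other parts of mitochondria and of metabolism had medians near 0, with members called in each direction, beside 11.8% higher and 10.9% lower of all tested genes. Of 75 mitochondrial ribosomal proteins 3 were called higher and 7 lower, with a median of 0.06, and 0 lower remained without Vem replicate 2 and 1 without RSV+Vem replicate 2. Glycolysis had 2 higher and 6 lower of 30 and a median of -0.01. That median was -0.17 without vehicle replicate 1 and 0.12 without vehicle replicate 2. Cholesterol synthesis and uptake had 2 higher and 4 lower of 24 and a median of -0.01, and the proteasome 3 and 3 of 39 and -0.03. Without vehicle replicate 2 the glycolysis genes had 10 higher and 6 lower and the proteasome 1 higher and 6 lower. The proteasome had 1 lower without vehicle replicate 1, Vem replicate 2, RSV replicate 1 or RSV+Vem replicate 2, and cholesterol synthesis and uptake had 2 lower without Vem replicate 2 or RSV+Vem replicate 1. Single members departed in either direction. LDHA, which reduces pyruvate to lactate, had 1790 and 1210 CPM with vehicle, 533 and 568 with Vem, 444 and 495 with RSV, and 348 and 354 with RSV+Vem. It fell under each compound, and RSV+Vem was the lowest group but by less than the sum of the single effects, an interaction of 1.03 (SE 0.19, edgeR adjusted p = 0.00145). TM7SF2, a sterol reductase, had 5.67 and 6.96 CPM with vehicle, 33.6 and 35.3 with Vem, 26 and 21.4 with RSV, and 33.9 and 37.1 with RSV+Vem. The combination was level with Vem alone, an interaction of -1.86 (SE 0.2, edgeR adjusted p = 6.2e-06).

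Genes of the extracellular matrix had the lowest median of the 31 lists described, -0.76. Of 27 tested, 14 (51.9%, beside 10.9% of all tested genes) were called lower for the interaction and 0 higher. Their median Vem effect was 0.27 without RSV and -0.45 with RSV. Without RSV, Vem called 10 of the 27 higher and 11 lower, beside 25.5% and 26.9% of all tested genes. With RSV it called 2 higher and 12 lower, beside 11.3% and 13.4%. LAMB2, a laminin chain of basement membranes, had 117 and 122 CPM with vehicle, 370 and 361 with Vem, 173 and 155 with RSV, and 195 and 182 with RSV+Vem. The rise under Vem was 1.61 without RSV and 0.20 with it, an interaction of -1.41 (SE 0.13, edgeR adjusted p = 2.01e-06). In SPARC, a collagen-binding glycoprotein, the direction changed. It had 882 and 876 CPM with vehicle, 1000 and 1120 with Vem, 1010 and 1110 with RSV, and 634 and 689 with RSV+Vem.

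The RSV+Vem libraries of SPARC were thus the lowest although neither compound alone lowered it, and the interaction was -0.94 (SE 0.12, edgeR adjusted p = 2.89e-05). SERPINE2, a protease inhibitor, had 227 and 205 CPM with vehicle, 220 and 206 with Vem, 484 and 452 with RSV, and 242 and 254 with RSV+Vem. Its rise was present with RSV alone and nearly absent in the combination, an interaction of -0.90. TNC, which had 3 or fewer counts in both libraries of a group, is among the 14 called members and lost its call without any 1 library but RSV replicate 2. The 14 calls were 9 without Vem replicate 1.

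Antigen presentation leaned to the negative side. Of 15 tested genes of MHC class I and peptide loading 6 (40%, beside 10.9% of all tested genes) were called lower and 0 higher. The median of -0.54 was -0.34 without RSV replicate 1. The 6 calls were 3 without Vem replicate 2, and 4 without vehicle replicate 1, RSV replicate 1 or either RSV+Vem replicate. Among 31 interferon-stimulated genes 1 was called higher and 7 lower (3.23% and 22.6%, beside 11.8% and 10.9% of all tested genes). The median of -0.22 was -0.43 without Vem replicate 1 and -0.07 without Vem replicate 2. The 7 calls were 3 without Vem replicate 2 and 4 without vehicle replicate 1. STAT2, of the interferon signalling complex, had -1.15.

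**Figure D4:**
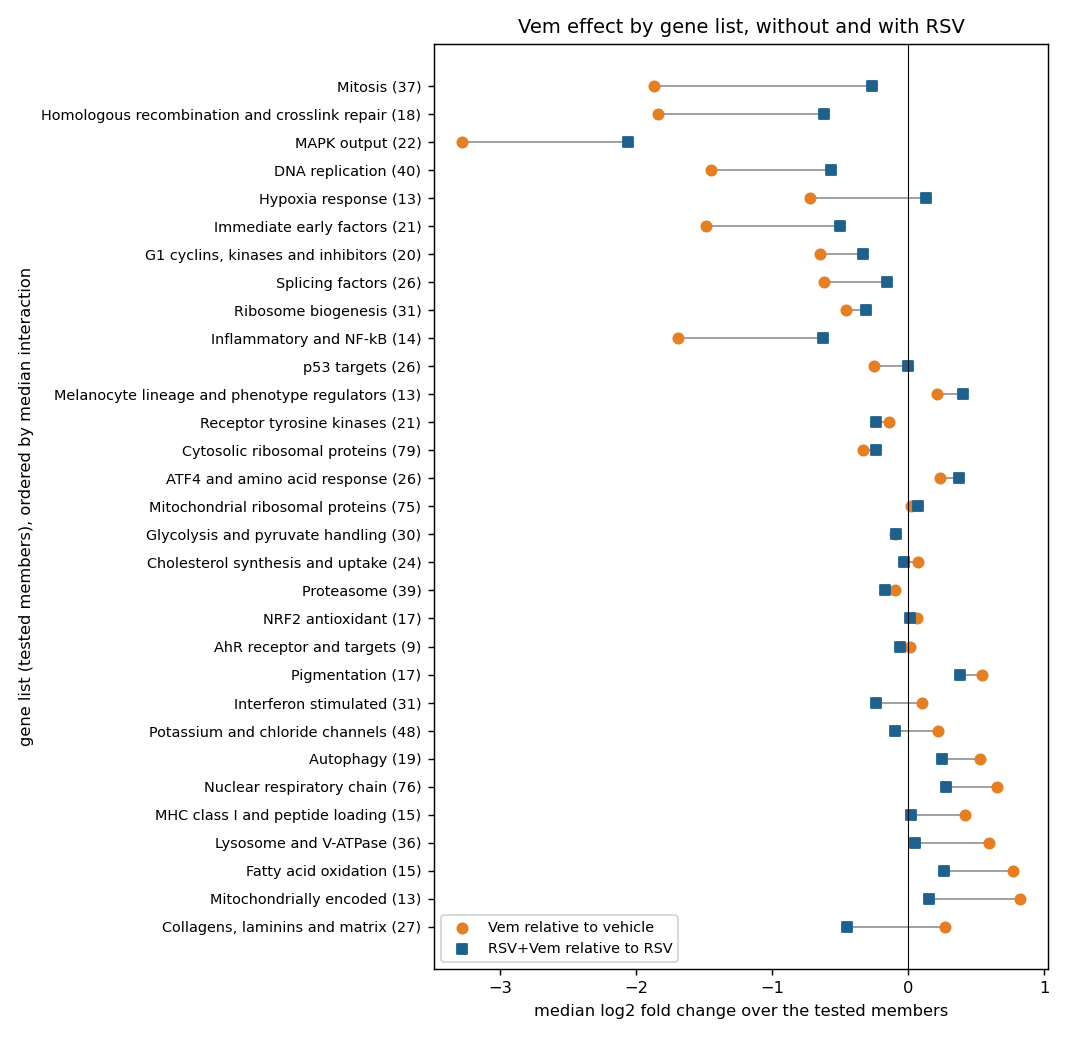
Median log2 fold change of Vem against vehicle (circles) and of RSV+Vem against RSV (squares) over the tested members of 31 gene lists, ordered by median interaction, with the number of tested members in brackets. At the top the squares lie to the right of the circles (mitosis -1.87 and -0.27), at the bottom to the left (matrix 0.27 and -0.45), and in the middle the marks lie close together.

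Pigmentation genes are a readout that the study follows. Of 17 tested 1 was called higher and 5 lower (5.88% and 29.4%, beside 11.8% and 10.9% of all tested genes). The median of -0.17 was -0.29 without RSV+Vem replicate 2 and -0.09 without RSV replicate 2. The median Vem effect was 0.54 without RSV and 0.38 with RSV, and the median RSV effect was -0.61 without Vem and -0.92 with Vem. OCA2, a melanosomal membrane protein, had 116 and 86 CPM with vehicle, 404 and 390 with Vem, 39.2 and 44.6 with RSV, and 155 and 150 with RSV+Vem. The groups did not overlap, and the Vem effect was 1.98 without RSV and 1.86 with it. The interaction was -0.11 (SE 0.16, edgeR adjusted p = 0.659), and it was 0.08 without vehicle replicate 2 and -0.34 without vehicle replicate 1. TYR, the first enzyme of melanin synthesis, had -0.01 (SE 0.12), and TYRP1, a related melanosomal enzyme, -0.04 (SE 0.16).

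PMEL, which forms the fibrils of the melanosome, was the pigmentation gene furthest from additive. It had 7860 and 7860 CPM with vehicle, 21100 and 22300 with Vem, 5810 and 5700 with RSV, and 7990 and 7710 with RSV+Vem. The rise under Vem was 1.46 without RSV and 0.45 with RSV, an interaction of -1.02 (SE 0.1, edgeR adjusted p = 3.22e-06). MLPH and RAB32, which act in melanosome transport and biogenesis, had -0.79 and -0.58. TRPM1, a cation channel of melanocytes, was the member called higher, with 0.67, and kept its call only without vehicle replicate 2 or RSV replicate 2. It was 0.40 without vehicle replicate 1. MITF, the regulator of the melanocyte lineage, had an interaction of 0.32 that was not called (SE 0.22, edgeR adjusted p = 0.319) and that was called at 0.58 without RSV replicate 2.

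TFAP2A, a transcription factor of the same lineage, was one of the few genes whose Vem effect was larger with RSV. It had 208 and 188 CPM with vehicle, 524 and 490 with Vem, 73.8 and 80.8 with RSV, and 272 and 261 with RSV+Vem. The Vem effect was 1.36 without RSV and 1.78 with it, an interaction of 0.43 (SE 0.12, edgeR adjusted p = 0.0195), which lost its call without any 1 of vehicle replicate 1 (0.36), Vem replicate 2 (0.38), RSV replicate 1 (0.37) and RSV+Vem replicate 1 (0.40).

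Within the AhR pathway the members departed in both directions. Of 9 tested genes 3 were called higher and 2 lower (33.3% and 22.2%, beside 11.8% and 10.9% of all tested genes), with a median of -0.09. AHR itself had 55 and 58.3 CPM with vehicle, 19.5 and 18.6 with Vem, 80.2 and 80.4 with RSV, and 46 and 56.3 with RSV+Vem. The receptor transcript was lowest with Vem and near vehicle in the combination, an interaction of 0.91 (SE 0.16, edgeR adjusted p = 0.000584). CYP1A1, the classic target enzyme, had 23.5 and 23.1 CPM with vehicle, 13.6 and 12.4 with Vem, 69 and 67.5 with RSV, and 22.2 and 28.1 with RSV+Vem. RSV alone raised it and RSV+Vem was near vehicle, an interaction of -0.61 (SE 0.18, edgeR adjusted p = 0.0207) that was not called without Vem replicate 1 (-0.54) or RSV+Vem replicate 1 (-0.44). The repressor AHRR had -0.85 and the target TIPARP 0.59, and TIPARP lost its call without vehicle replicate 1 (0.48), Vem replicate 2 (0.55) or RSV replicate 2 (0.48).

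Several of the largest negative interactions were in genes that RSV or Vem alone raised from a low level. KCNJ13, an inward rectifier potassium channel (2:233630512 to 233641275, minus strand), had 0.455 and 0.607 CPM with vehicle, 18.4 and 19.5 with Vem, 1.51 and 1.52 with RSV, and 6.92 and 8.77 with RSV+Vem. Vem raised it in both settings, by 5.12 and by 2.34, and the groups did not overlap. Its interaction was -2.78 (SE 0.39, edgeR adjusted p = 6.84e-05). The counts of the channel list stand beside 11.8% of all tested genes called higher and 10.9% called lower. Over 48 tested potassium and chloride channels 2 were called higher and 10 lower, with a median of -0.27, and 6 were lower without Vem replicate 1.

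TIE1, a receptor kinase best known from endothelium, had 0.304 and 0.324 CPM with vehicle, 2.23 and 3 with Vem, 3.2 and 2.52 with RSV, and 2.66 and 2.14 with RSV+Vem. All treated groups overlapped and lay above vehicle, an interaction of -3.23 (SE 0.52, edgeR adjusted p = 0.000281). Of 4 endothelial markers 1 was at 0 counts in all 8 libraries and 2 were at 3 or fewer, and their summed level was between 0.324 and 0.557 CPM with vehicle, 1.04 and 1.23 with Vem, 1.27 and 1.31 with RSV, and 1.57 and 1.92 with RSV+Vem. Their part in the TIE1 values was not tested. C1S, a complement protease, had 0.86 and 0.769 CPM with vehicle, 5.01 and 2.54 with Vem, 5.18 and 5.78 with RSV, and 3.09 and 3.6 with RSV+Vem. The treated groups all lay above vehicle, and the interaction was -2.96 (SE 0.41, edgeR adjusted p = 6.34e-05).

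ITGAX, an integrin chain best known from myeloid cells, had 3.59 and 3.84 CPM with vehicle, 8.07 and 6.84 with Vem, 29.8 and 26.3 with RSV, and 11.8 and 11.7 with RSV+Vem. Vem raised it without RSV (1.00) and lowered it with RSV (-1.25), and the interaction was -2.25 (SE 0.27, edgeR adjusted p = 1.25e-05). The 5 leukocyte markers summed to between 1.09 and 2.59 CPM in the groups with RSV and to at most 0.692 in the others, and 1 of them had 3 or fewer counts in all 8 libraries. Their part in the ITGAX values was not tested.

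Stress and signalling lists showed no common direction. Their counts for the interaction stand beside 11.8% of all tested genes called higher and 10.9% called lower. Among 26 p53 targets 2 were called higher and 1 lower, with a median of 0.18, and RSV raised 13 of them without Vem and 14 with it, beside 20.5% and 19.1% of all tested genes. TP53I3, a quinone oxidoreductase induced by p53, was the member called lower, with 0.455 and 0.607 CPM with vehicle, 1.88 and 1.92 with Vem, 7.84 and 7.25 with RSV, and 5.05 and 5.4 with RSV+Vem. PMAIP1, a pro-apoptotic BCL2 relative, had 7.69 and 6.43 CPM with vehicle, 2.23 and 1.84 with Vem, 24.9 and 20.1 with RSV, and 14.7 and 21 with RSV+Vem. The interaction was -2.34 for TP53I3 and 1.42 for PMAIP1, while 23 of the 26 targets were not called.

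The ATF4 and amino acid response had a median of 0.08, with 2 higher and 1 lower of 26, and among its members the serine synthesis enzyme PHGDH had 0.85 and the mitochondrial folate enzyme MTHFD2 had 1.02. NRF2 targets had 2 higher and 2 lower of 17 and a median of -0.05. Receptor tyrosine kinases had 3 higher (14.3%) and 0 lower of 21 and a median of 0.11. Inflammatory and NF-kB genes had 1 and 1 of 14 and 0.28, and regulators of melanocyte lineage and phenotype 2 (15.4%) and 1 of 13 and 0.15. With 11.8% of all tested genes called higher and 10.9% lower, these counts lie near or below those shares. The medians of these lists moved with 1 library left out: that of the ATF4 list was -0.05 without vehicle replicate 1 and 0.32 without RSV replicate 1, that of the inflammatory list 0.06 without RSV replicate 2 and 0.53 without RSV replicate 1, and that of the receptor kinases -0.09 without RSV+Vem replicate 1. In the hypoxia response 0 of 13 genes were called in either direction by edgeR. Their median of 0.68 was -0.15 without vehicle replicate 1, with 3 called in each direction, and 1.21 without vehicle replicate 2, with 7 called higher, and BNIP3, a mitophagy receptor induced by hypoxia, had 204 and 42.9 CPM in those replicates.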

How the data were processed

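The authors extracted total RNA, made stranded mRNA libraries, sequenced read pairs on a NextSeq 500, aligned them with STAR 2.4.0a to hg19 (GRCh37) and counted primary alignments per gene symbol with featureCounts of Subread 1.5.0-p3. The deposited values are raw counts for 56638 symbols, with loci of the same symbol summed, and for 96 controls, of which 92 were ERCC spike-ins. Whether the strand setting separated antisense partners was not tested. The annotation release is not given in the sources used here. Gene positions are from GENCODE on GRCh37, and promoters are from RefSeq on GRCh38.p14, matched by symbol for 10976 tested genes.

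Control sequences were removed, filterByExpr by group kept 16080 genes, and counts were scaled with TMM factors. edgeR 4.0.16 (robust quasi-likelihood fit, R 4.3.3) was fitted with 1 term per group to all 12 libraries, and every effect and the interaction were tested as contrasts with Benjamini-Hochberg adjustment over all tested genes. With 2 libraries per group no exact permutation test of 1 group against another can reach 0.05 for a single gene. Tested genes with 3 or fewer counts in both libraries of any of the 4 groups numbered 729, of which 43 were called.

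The genes named are the 15 largest positive and 15 largest negative called interactions whose highest group averaged 50 or more counts, up to 4 called members per list with the smallest adjusted p, and OCA2, CYP1A1, TYR and MITF. Other list members with values were chosen after their values were seen. The comparison, the members and the gene lists were chosen with earlier results of these data known. Lists are described by counts and medians only.

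Alternatives were DESeq2 1.42.0, RLE factors, scaling to the ERCC spike-ins, all genes with any count, a stricter minimum (10 counts per library), a fit without the TCDD libraries, the replicate number as a block, a test against an absolute interaction of 0.5, and each library left out. After seeing the data, thinning to the lowest depth and the 8 libraries without RSV+Vem replicate 2 were added. On simulated counts (15884 genes) the interaction test called 50 of 97 genes changed by 1 on the log2 scale, 77 of 98 changed by 2, and 6 unchanged genes. Python 3.11.15 and matplotlib 3.10.9 drew the plots. Read-level data were not used here, and the values of some genes that the rule names are not reported here.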

Additional observations from a re-analysis of the deposited data

Results flagged for a closer look

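The Vem effect with RSV differed from that without RSV by the interaction test in 3656 genes. The largest among them, chosen by the rule on mean counts, are given here as values of the interaction on the log2 scale, beside those described above.

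On the positive side HES1 had 3.40, SPRY4 3.39 and DUSP6 2.66. RASGRP1, an activator of Ras, had 2.83, with 11.9 and 8.54 CPM with vehicle, 0.765 and 0.538 with Vem, 7.9 and 8.98 with RSV, and 4.04 and 3.71 with RSV+Vem. SHISA2, an inhibitor of Wnt and FGF receptor maturation, had 2.69, SFRP1, a secreted Wnt antagonist, 2.66, and PPP1R14C, an inhibitor of protein phosphatase 1, 2.71. In these 4 genes the RSV+Vem libraries lay between those of Vem and those of the groups without Vem. FAM84B had 2.60 and HMMR, a spindle-associated hyaluronan receptor, 2.58. ZNF695, a zinc finger gene, had 2.71 and the unnamed locus AC096559.1 had 2.78.

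NPTX1, a neuronal pentraxin, had 2.70, with 3 or fewer counts in both Vem libraries. Its vehicle level was at least 11.6-fold higher than the floor of 3 counts per library, and its interaction at that floor was 2.49. FAM72D had 2.56 and is uncertain, because near-identical copies can share its reads. LRRIQ1 had 2.48, and the interaction of LRRIQ1 lost its call without RSV+Vem replicate 1 (1.17). PDK1, a kinase that inhibits pyruvate dehydrogenase, had 2.43 with an edgeR adjusted p = 0.0478, and its vehicle replicates were 101 and 36.7 CPM. The interaction of PDK1 was 1.54 without vehicle replicate 1, and it was not called without any 1 of the Vem, RSV and RSV+Vem libraries, with values from 2.29 to 2.58.

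On the negative side TIE1 had -3.23, C1S -2.96, KCNJ13 -2.78, TP53I3 -2.34, ATG2A -2.33 and ITGAX -2.25. SPTBN5, a spectrin chain, had -2.79, with 1.21 and 1.01 CPM with vehicle, 7.37 and 7.45 with Vem, 6.15 and 5.04 with RSV, and 4.79 and 6.18 with RSV+Vem. KRBA2 had -2.82 and the host gene of miR-22, MIR22HG, -2.43. MT-TT, the mitochondrial threonine tRNA, had -2.42 in these poly(A)-selected libraries. MYH7B, a myosin heavy chain, had -2.24 with 2.83 and 1.46 CPM with vehicle, 31.5 and 23.4 with Vem, 1.69 and 2.15 with RSV, and 5.64 and 4.95 with RSV+Vem. LIMS2, an adaptor of focal adhesions, had -2.19. CTSO, a cysteine cathepsin, had -2.30. The interaction of CTSO was -3.46 without vehicle replicate 1.

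KNDC1 had -2.83. The interaction of KNDC1 was -4.36 without vehicle replicate 1 and lost its call without vehicle replicate 2, Vem replicate 1 or RSV replicate 1, with values from -2.44 to -1.99.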

How the results depend on the processing

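The 3656 calls became 3461 with DESeq2 (3283 shared), 3630 with RLE factors, 3815 with no filter on low counts, 3681 with at least 10 counts in every library and 3226 with only the 8 libraries. Leaving out each library in turn gave 2445 (without Vem replicate 1) to 3803 (without RSV replicate 2) calls. Fewer calls came from spike-in scaling (8, of which 5 were shared with the 3656 and 135 of the named genes lost their calls), a threshold of 0.5 on the absolute interaction (811) and, chosen after seeing the data, the 8 libraries without RSV+Vem replicate 2 (2134). Thinning all libraries to the lowest depth, also chosen after seeing the data, gave 3132 over 14363 tested genes. The cause of the change under spike-in scaling was not tested. With the replicate block the count was 3805. The replicate numbers were not used as a pairing, since the correlation of replicate deviations was between -0.042 and 0.15 over the 6 pairs of groups. The block took the call of 1 named gene, ATF5, an amino acid response factor (the interaction of ATF5 was -0.83 in both fits).

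Directions reversed for values near 0 that were not called. The interaction of OCA2 was 0.035 under spike-in scaling and between -0.339 and 0.0767 with a library left out. The interaction of TYR was 0.15 under spike-in scaling, 0.0123 with no filter on low counts, 0.0479 for the 8 libraries without RSV+Vem replicate 2, and between -0.0624 and 0.0518 with a library left out.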

Other observations

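Of 26 tested replication-dependent histone genes, whose transcripts normally lack a poly(A) tail, Vem called 9 higher and 0 lower without RSV (median 0.89), beside 25.5% of all tested genes called higher. With RSV it called 17 higher and 0 lower (median 1.89), beside 11.3%. For the interaction 2 were called higher and 1 lower (7.69% and 3.85%, beside 11.8% and 10.9% of all tested genes). The median of 0.65 was 0.11 without the 4 members that had 3 or fewer counts in both libraries of a group. The copies are near-identical, so their counts are uncertain. RNA integrity was lowest in the RSV+Vem libraries, and its part in these values was not tested.

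The list counts that follow stand beside 11.8% of all tested genes called higher for the interaction and 10.9% called lower. Among 20 chaperones and unfolded protein response genes of the endoplasmic reticulum 6 (30%) were called lower for the interaction and 0 higher, with a median of -0.30. Small nucleolar RNA host genes had 6 called higher and 1 lower of 16, with a median of 0.47, and the 6 calls were 2 without Vem replicate 2 and 4 without either RSV+Vem replicate, vehicle replicate 2 or Vem replicate 1. Enzymes of epigenetic methylation and acetylation had 7 higher and 0 lower of 22, with a median of 0.18. Of 205 solute carriers 8 were called higher and 51 lower, with a median of -0.15, and 18 were higher without vehicle replicate 2. Of 464 zinc finger genes of the ZNF series 42 (9.05%) were called higher and 21 (4.53%) lower, both below the shares of all tested genes. Their median was -0.01. Without Vem replicate 1 these were 23 and 9, and without RSV+Vem replicate 2 they were 27 and 8.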
